A study of Mus musculus with 12 samples.

Results

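Mef2c, Npas1 and Cux2 encode neuronal transcription factors of different families. Each was listed with YTHDF1 CLIP peaks in mouse striatum, Mef2c for cocaine alone and Npas1 and Cux2 for saline alone. They were chosen by symbol from the genes listed with peaks, and all 3 were found among the 1247 genes in either of the 2 deposited tables. The libraries came from striatum of wild-type (WT) C57BL/6J mice given cocaine or saline, with 3 CLIP and 3 input libraries per treatment and 12 in all. In CLIP-seq, ultraviolet light links a protein to RNA it touches, an antibody pulls the protein down, and the attached RNA is sequenced. Here the antibody was a monoclonal against YTHDF1, and the values are counts of called peaks, 1 whole number per gene and CLIP library. Input values were not used here, and whether the authors set the peaks against input is not stated. The labels used here give no dose, schedule, age or sex of the mice. The labels call the material striatal neurons, but the protocol describes lysis of whole frozen tissue.

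YTHDF1 is a cytoplasmic reader of N6-methyladenosine (m6A), a mark on adenosines of RNA, and is best known for raising the translation of marked RNAs. Mef2c encodes a MADS-box transcription factor that, in neurons, responds to calcium signalling and is known for its part in controlling synapse number. Npas1 encodes a basic helix-loop-helix PAS protein that pairs with ARNT-type partners, and it marks a class of inhibitory neurons of the external globus pallidus, which borders the striatum. Cux2 encodes a homeodomain protein with cut repeats and is known as a marker of upper-layer excitatory neurons of the cortex.

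Each of the 3 genes was listed for 1 treatment alone. Mef2c was in the cocaine table and not in the saline table, whereas Npas1 and Cux2 were in the saline table and not in the cocaine table. This is common among listed genes: 76.1% of the cocaine genes (798 of 1049) were missing from the saline table, and 44.1% of the saline genes (198 of 449) were missing from the cocaine table. The 2 tables have unlike cutoffs. Every cocaine gene had a mean above 6 peaks and every saline gene a mean above 1, and no listed value was below 1 peak. A gene missing from a table therefore had a mean at or below its cutoff, or no peak in at least 1 library. It was never counted as 0, and no member could be tested between treatments, since none was in both tables. The cocaine libraries held 24770 to 25528 listed peaks and the saline libraries 3720 to 3944. Read depth is unknown, and the labels do not say whether the libraries came from separate animals. Libraries are numbered by column order, because the columns carry no replicate number.

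Mef2c (ENSMUSG00000005583) had 10, 16 and 29 peaks in cocaine libraries 1, 2 and 3, a mean of 18.3 ± 9.71 (SD, n = 3). Library 1 lay below the median gene of that library, which had 13 peaks, and libraries 2 and 3 lay above it. Mef2c stood at the 37.7th percentile of listed genes in library 1, at the 63.1st in library 2 and at the 82.8th in library 3. By mean it ranked 324 of 1049, the 69.2nd percentile.

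The libraries differed more for Mef2c than for most genes of its level. Its coefficient of variation was 53.0%, against a median of 35.9% over the 206 cocaine genes of like level, those with a mean up to 25% above its own or as far below by ratio (14.7 to 22.7 peaks). Its highest library held 2.9 times the peaks of its lowest, and 48 of these 206 genes, Mef2c included, had a ratio at least as large. Library 3 was not high in general at this level: the 206 genes together held 3760, 3647 and 3695 peaks in libraries 1, 2 and 3, and library 3 was the highest for 64 of them. As a share of all listed cocaine peaks, Mef2c held 3.92, 6.46 and 11.6 per 10000 peaks in the 3 libraries.

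Npas1 (ENSMUSG00000001988) had 8, 7 and 7 peaks in saline libraries 1, 2 and 3, a mean of 7.33 ± 0.577 (SD, n = 3). All 3 libraries lay above the median saline gene, which had 4 peaks in each. Npas1 ranked 109 of 449 by mean, the 75.9th percentile, and stood between the 74.4th and the 77.5th percentile in single libraries. Its coefficient of variation was 7.87%, against a median of 48.2% over the 59 saline genes of like level, chosen in the same way (6.0 to 9.0 peaks), and 2 of these 59, Npas1 included, had a value that low. Its share was 21.1, 18.8 and 17.7 per 10000 listed saline peaks.

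Cux2 (ENSMUSG00000042589) had 1, 2 and 2 peaks in saline libraries 1, 2 and 3, a mean of 1.67 ± 0.577 (SD, n = 3). These values are close to the lowest a listed gene can have, since the lowest mean in the saline table was 1.33. Cux2 shared its mean with 34 other saline genes and ranked at the 14.5th percentile. Its whole evidence is 5 peaks over 3 libraries, against 22 for Npas1 and, in cocaine, 55 for Mef2c. Its share was 2.64, 5.38 and 5.07 per 10000 listed saline peaks.

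**Figure D1:**
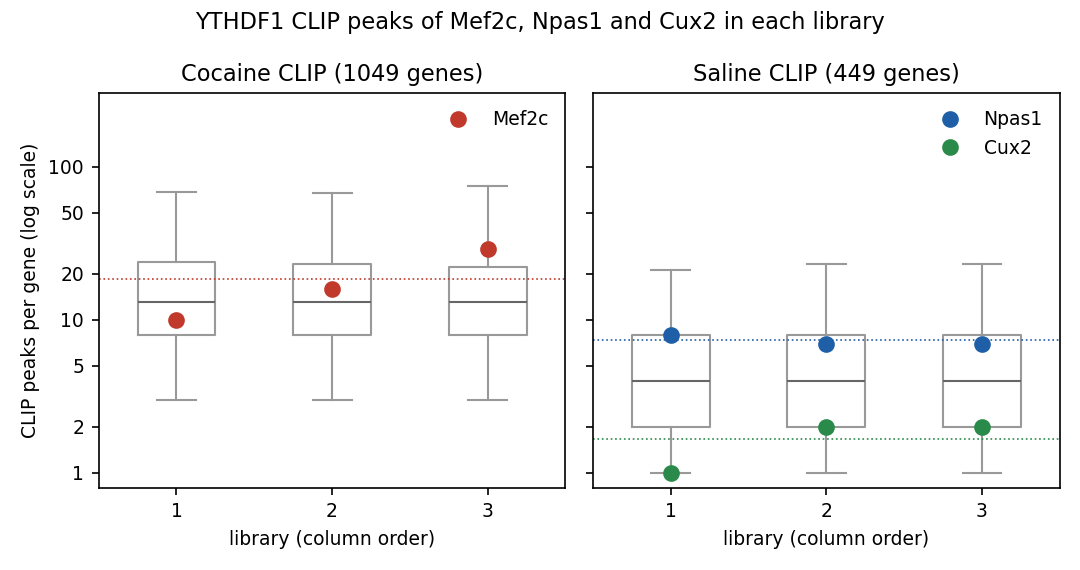
CLIP peaks per gene (log scale) in each library, cocaine on the left and saline on the right; coloured points are Mef2c, Npas1 and Cux2, dotted lines their means over 3 libraries, and boxes all listed genes (median, quartiles, whiskers from the 5th to the 95th percentile). Mef2c spreads from 10 to 29 peaks across the cocaine libraries, Npas1 stays at 7 or 8 in saline, and Cux2 lies at 1 or 2.

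The listing of Mef2c for cocaine alone was the usual outcome at its level. Of the 206 cocaine genes of like level, 156 (75.7%) were missing from the saline table, and 50 were listed there (24.3%, exact 95% interval 18.6 to 30.7). Without cocaine library 3, in which Mef2c was highest, its mean was 13.0 peaks and 14.1% of the genes at that level were listed in saline. The 50 genes in both tables had 1.67 to 20.7 peaks in saline, with a median of 4.83. Their peaks in cocaine were 0.887 to 12 times those in saline, with a median of 3.97. If Mef2c had a peak in each saline library, its saline mean was exactly 1, since a lower mean needs a library without a peak. Cocaine then held 18.3 times as many. The highest ratio among the 251 genes in both tables was 17.9. These ratios are of whole peaks and do not allow for library totals, which averaged 25070 listed peaks in cocaine and 3818 in saline. Under the same condition, a ratio of this size or larger follows for 172 cocaine genes missing from the saline table. These had means at or above that of Mef2c, which is among them. If a saline library had no Mef2c peak, the tables give no bound.

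The absence of Npas1 from the cocaine table was less common at its level. Of the 59 saline genes of like level, 7 (11.9%) were missing from the cocaine table, and 52 were listed there (88.1%, exact 95% interval 77.1 to 95.1). Those 52 had 7.0 to 125.3 peaks in cocaine, with a median of 32.7, where a listed gene needed more than 6. The 7 missing genes were Npas1, Vac14, Dcaf10, Hhat, Krt28, Usp2 and ENSMUSG00000087108, which has no symbol in the files. Vac14 is a scaffold of phosphoinositide metabolism, Hhat a palmitoyltransferase of hedgehog proteins, Krt28 a keratin and Usp2 a deubiquitinase. At or above the mean of Npas1, 113 saline genes were listed and 2 were missing from the cocaine table, Npas1 and Vac14.

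The saline mean of Npas1, 7.33 peaks, lies above the cocaine cutoff of 6, so equal peaks in every library of both treatments would have kept it in the cocaine table. Of the 137 saline genes with a mean above 6, 5 were missing there (3.65%): Vac14 (8.0 ± 2.0 peaks in saline), Npas1, Dcaf10 (7.0 ± 2.0), Hhat (7.0 ± 2.65) and ENSMUSG00000087108 (6.33 ± 2.08). Of these 5, Npas1 had the smallest SD between libraries. If Npas1 had a peak in each cocaine library, its cocaine mean was at most 6.0. Cocaine then held at most 0.818 times the saline number. That bound is of whole peaks and does not allow for library totals, which averaged 25070 listed peaks in cocaine and 3818 in saline. If a cocaine library had no Npas1 peak, its mean there has no bound. No p-value can be given for Npas1, because it has no value in cocaine.

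The absence of Cux2 from the cocaine table was the usual outcome at its level. Of the 96 saline genes of like level (1.33 to 2.0 peaks), 88 (91.7%) were missing from the cocaine table, and 8 were listed there (8.33%, exact 95% interval 3.67 to 15.8). Those 8 had 6.67 to 20 peaks in cocaine. The share listed there was 19.2% without saline library 1, 12.2% without library 2 and 0% without library 3. The cocaine cutoff of 6 lies 3.6 times above the saline mean of Cux2, so equal peaks in both treatments would leave it out of the cocaine table.

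**Figure D2:**
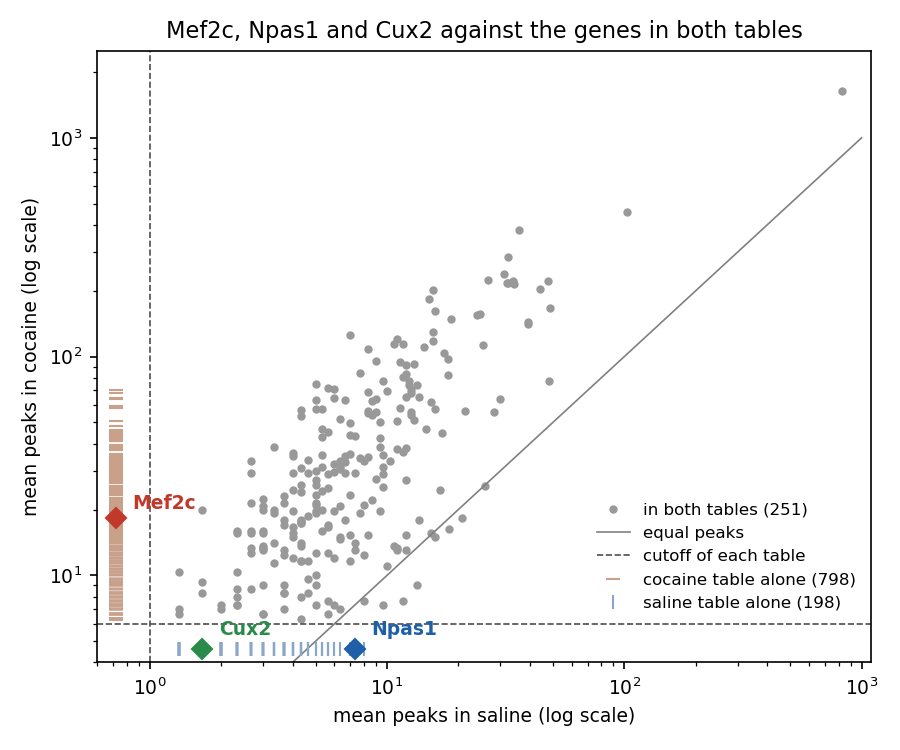
Mean peaks in cocaine (vertical, log scale) against saline (horizontal, log scale) for the 251 genes in both tables; dashed lines are the cutoffs of 6 and 1, and the diagonal marks equal peaks. Genes in 1 table alone are drawn as ticks outside the cutoff of the other table, where they have no measured value; Npas1 lies near the right end of the saline ticks and Mef2c within the dense range of the cocaine ticks.

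**Figure D3:**
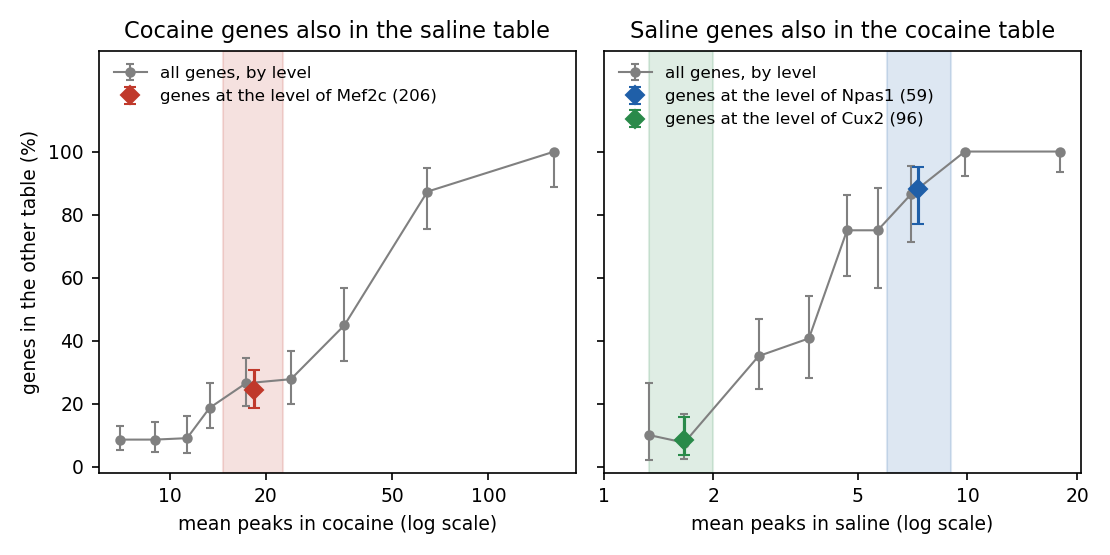
Percentage of genes also listed in the other table by mean peaks (log scale), cocaine genes on the left and saline genes on the right, with exact 95% binomial intervals. Diamonds and shaded bands show the genes of like level: 24.3% at the level of Mef2c, 88.1% at that of Npas1 and 8.33% at that of Cux2.

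The 3 genes differ in size, so their levels were also set per length of gene span, taken from RefSeq for GRCm38.p6 (mm10). Mef2c spans 163 kb on chromosome 13 from 83504017 to 83667079, Npas1 21.1 kb on chromosome 7 from 16455721 to 16476822, and Cux2 192 kb on chromosome 5 from 121857962 to 122050415. Npas1 was the shortest of them and had 37.9, 33.2 and 33.2 peaks per 100 kb in the saline libraries (34.8 ± 2.74, SD, n = 3), the 86.0th percentile of the 343 saline genes with a span. Cux2 had 0.520, 1.04 and 1.04 peaks per 100 kb in the same libraries (0.866 ± 0.30), the 16.9th percentile. Every saline library thus had a higher density in Npas1 than in Cux2, with means 40.1-fold apart. That gap joins a difference in mean peaks, 7.33 against 1.67, with a difference in span, 21.1 against 192 kb. The exact 2-sided sign-flip permutation test over the 3 libraries gave p = 0.25, the smallest that 3 pairs allow. Mef2c had 6.13, 9.81 and 17.8 peaks per 100 kb in the cocaine libraries (11.2 ± 5.96), the 23.9th percentile of the 714 cocaine genes with a span. By number of peaks Mef2c was thus in the upper part of its table and by density in the lower part. By span Mef2c stood at the 81.7th percentile of these cocaine genes, and Npas1 at the 19.5th of the saline genes. Gene span and number of peaks were almost unrelated across genes (Spearman's rho 0.00201 in cocaine and -0.106 in saline, a description over genes that share their libraries). The low density rank of Mef2c and the high one of Npas1 thus reflect their spans as well as their peaks. They are not evidence of sparse or dense binding apart from length. Cux2, with 192 kb, ranked low by both measures. The span counts introns, and the tables do not say where in a gene its peaks lie.

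**Figure D4:**
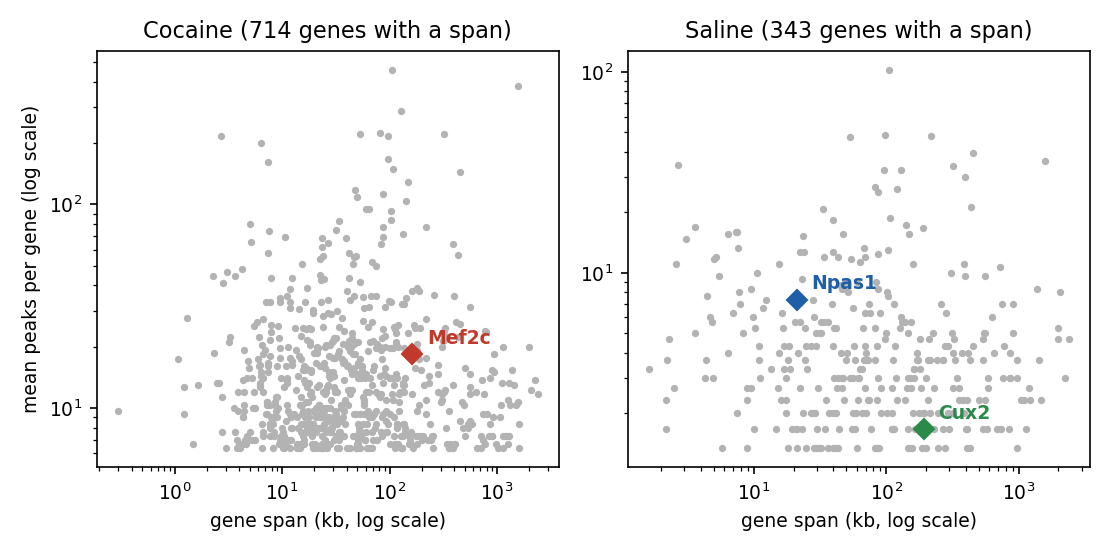
Mean peaks per gene (log scale) against gene span in kb (log scale) for the 714 cocaine genes and the 343 saline genes with a span. Npas1 combines a short span of 21.1 kb with 7.33 peaks, whereas Cux2 and Mef2c span 192 and 163 kb.

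No other coding gene overlaps any of the 3 in the annotation. Mef2c overlaps the non-coding Gm52043 and Gm52044, Cux2 the non-coding Gm52785 and Npas1 a ribosomal RNA locus, n-R5s151. None of these is listed under its symbol, and the tables give no strand, so peaks of an overlapping RNA cannot be told apart from those of the named gene. The coding gene Tmem160, which is not listed, ends 225 bases from Npas1. Only listed genes with a span could be placed, 714 of 1049 in cocaine and 343 of 449 in saline, so a nearer listed gene without one may exist. Among those placed, the nearest to Npas1 were Vmn2r53 at 3849 kb and Rtn2, a reticulon gene, at 2806 kb; both were in cocaine alone, with 7.0 ± 4.58 and 12.3 ± 4.04 peaks. The nearest placed neighbour of Cux2 is Sh2b3, a signalling adaptor gene 20.3 kb away, which was in cocaine alone with 10.3 ± 6.81 peaks. On its other side Rad9b, a DNA damage checkpoint gene 273 kb away, was also in cocaine alone, with 8.67 ± 1.53 peaks. The nearest placed neighbours of Mef2c are the non-coding Gm17750, 358 kb away and in saline alone with 1.33 ± 0.577 peaks, and Adgrv1, an adhesion receptor gene 1871 kb away, with 8.33 ± 2.52 peaks in cocaine and 4.67 ± 2.52 in saline.

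The genes with the most similar counts over 3 libraries were found by the root mean square difference of log2 peaks among genes with 1 symbol in the same table. For Mef2c they were the non-coding Grip1os1 (9, 18 and 27 peaks) and Gm12592, the palmitoyltransferase gene Zdhhc2 (13, 18 and 32), Tmem150b and the phosphatase subunit gene Ppp2r1b, with differences of 0.14 to 0.29. Grip1os1 was the only one of these 5 that was also in saline, with 4.33 peaks. For Npas1 they were Tifa, an adaptor gene of innate immune signalling, Dcaf10, Krt28, Tcte2 and Vac14, with differences of 0.23 to 0.32. Tifa had 34.7 peaks in cocaine and Tcte2 had 22.0, while Dcaf10, Krt28 and Vac14 were missing from that table. For Cux2, 5 genes had the same values of 1, 2 and 2 peaks, among them the receptor phosphatase gene Ptprm and the kinase gene Tlk1, and none of the 5 was in cocaine.

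Other transcription factor genes were counted in 6 lists. These hold the families of the 3 genes but also CREB-related, striatal and cortical factors, so most of the genes counted are not relatives. Of the 98 other genes in 6 lists of transcription factors, 1 was in either table (1.02%), against 3.33% of all 21896 coding genes (730). It was Atf2, a CREB-related factor, with 7, 7 and 7 peaks in cocaine against 4, 7 and 8 in saline. Whole peaks thus overlapped between the treatments, with 1.11 times as many in cocaine by mean. The 251 genes in both tables had a median of 4.54 times as many, so this overlap does not make Atf2 typical of them. Each table thus held 1 of the 98, where 2.58% of all coding genes were in the cocaine table and 1.33% in the saline table. Mef2c was the only 1 of 4 MEF2 genes listed, Npas1 the only 1 of 19 genes of the PAS list, which holds its relative Npas4 and its partners Arnt and Arnt2, and Cux2 the only 1 of 7 cut homeodomain genes, which include Cux1. None of the 28 regulators and targets of MEF2 was listed, among them the class IIa deacetylases Hdac4, Hdac5 and Hdac9, the calcineurin subunits, and Arc, Homer1 and Nr4a1. None of the 30 striatal and pallidal transcription factors was listed, including Foxp1, Bcl11b and Lhx6, and none of the 23 cortical ones, including Tbr1 and Fezf2. These genes may have had peaks below the cutoffs. With 3.33% of all coding genes listed, a count of 0 in lists this small is near that share. The count of 1 in 98 was not tested against it, because the lists were chosen with earlier results of these data known.

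All 3 genes are also used as cell type markers, so markers of the cell types a striatal dissection could hold were counted. None of the 12 markers of striatal projection neurons, such as Drd1, Drd2 and Ppp1r1b, was in either table. With 3.33% of all coding genes listed, 0 of 12 is near that share. Of the 9 markers of pallidal and striatal interneurons other than Npas1, 2 were listed: Gad1, which makes the transmitter GABA, with 5, 2 and 2 peaks in saline alone, and Chat, which makes acetylcholine, with 13, 10 and 5 peaks in cocaine alone. Chat overlaps Slc18a3, the acetylcholine vesicle transporter gene. Of the 12 markers of cortical excitatory neurons, 3 were listed, of which Mef2c and Cux2 were chosen because they are listed. Of the other 10, only Rasgrf2 was listed, with 3, 10 and 9 peaks in cocaine alone. No further gene of the cortical list, such as Slc17a7 or Tbr1, was in either table. Since 3.33% of all coding genes were listed, their absence says little. Microglia, in which Mef2c is also active, had 3 of 7 markers listed (42.9%), against 3.33% of all coding genes. Cx3cr1 had 25, 27 and 36 peaks in cocaine alone, P2ry12 had 20.7 ± 3.06 peaks in cocaine and 3.0 in each saline library, and Itgam had 2 peaks in each saline library. P2ry12 lies in Med12l, so its peaks may belong to that gene. Of the other markers, 1 of 9 for oligodendrocytes (Cnp, 11.1%) and 0 of 7 for astrocytes were listed. For endothelium 2 of 7 were listed (28.6%), Tek in cocaine alone and Pecam1 in saline alone. The share of the 9 interneuron markers above was 22.2%. These shares rest on few genes, and the lists were chosen with earlier results of these data known, so none was tested against the 3.33%. Cnp had 38.7 ± 8.39 peaks in cocaine and 3.33 ± 0.577 in saline. It overlaps the coding gene Dnajc7, so its peaks may belong to that gene. In whole tissue, the number of cells of a type and the RNA per cell cannot be told apart, and the part of any cell type in the peaks of Mef2c, Npas1 or Cux2 was not tested.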

How the data were processed

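Per the submitters' processing notes, cutadapt, STAR and mm10 were used; no version is stated, nor how peaks were called, set against input or given to genes. The authors deposited counts of peaks per gene as whole numbers, in 2 tables of 3 library columns, per the file headers. A further deposited column, a score equal to the authors' mean of the 3 counts, served to check them. The letter c or s in a table's name, which opens the library names in the labels, gave its treatment. Repeated lines of a gene were counted once.

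Means, SDs, percentiles, shares of listed peaks and exact (Clopper-Pearson) 95% intervals, which cover counting error only, were computed with SciPy 1.17.1, NumPy 2.4.6 and pandas 2.3.3 under Python 3.11.15. Genes of like level have a mean up to 25% above a member's or as far below by ratio. The code of the percentile and level steps was checked on simulated Poisson counts. That check covers the arithmetic only. The planned edgeR test between treatments was not run, because no member is in both tables. The p-value here treats the 3 saline libraries as its units, and their spread may be technical. It is the smallest that 3 pairs allow, so it does not measure that spread. Named genes were the 3 members, the 5 most similar genes of each, listed genes of the lists, overlapping or nearest listed genes and saline genes above 6 peaks missing from the cocaine table. Krt28 and Usp2, in the band of Npas1, and Nfib, Runx2 and Sox13 were named after their values were seen. Members and lists were chosen with earlier results of these data known.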

Additional observations from a re-analysis of the deposited data

How the results depend on the processing

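Of 65 alternative values, 55 moved by less than the spread between libraries or the interval of the reported value, and 10 moved by more. Only the difference between Npas1 and Cux2 has a sign that could change, and it kept that sign throughout. Set against 10000 peaks of the genes in both tables, a total that holds none of the 3 genes, Mef2c had 13.2 peaks and Npas1 22.4, as ratios and not shares. Of all listed peaks their shares were 7.34 and 19.2 per 10000. Without the 10 genes with most peaks, the share was 28.7 for Npas1 and 6.52 for Cux2, against 4.36 for Cux2 of all listed peaks. These totals are smaller by construction. Among genes with 1 symbol Npas1 stood at the 80.3rd percentile, and by the median of the libraries Cux2 stood at the 31.8th. With 1 library left out, the percentile ranged from 51.7 to 76.5 for Mef2c, 73.9 to 77.1 for Npas1 and 12.5 (without library 3) to 25.2 (without library 1) for Cux2. The percentage of genes at the same level in the other table ranged from 14.1 to 25.5 for Mef2c, 79.7 to 86.9 for Npas1 and 0 to 19.2 for Cux2. The mean ranged from 13.0 to 22.5, 7.0 to 7.5 and 1.5 to 2.0 peaks, and Npas1 exceeded Cux2 by 32.1 to 34.8 peaks per 100 kb. With a mean above 6 peaks required in both tables, 3 of the 4 listed genes of the transcription factor lists remained, all but Cux2. Wider or narrower level bands kept the percentages within the intervals reported. No paired analysis was possible because no replicate number pairs cocaine with saline columns and no member is in both tables; only Npas1 and Cux2 were paired, within saline libraries. The low number of peaks, above all for Cux2, limits what these values can show.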
